A study of Mus musculus with 18 samples.

Results

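The Ly6 genes described here are Ly6a, Ly6e, Ly6c1, Ly6c2, Ly6d and Ly6g. They were taken by symbol from the deposited tables of bone marrow progenitors, and all 6 were found among the 19780 genes listed for LSK cells and among the 18428 genes listed for common myeloid progenitors (CMPs). LSK cells are the Lin- Sca-1+ c-Kit+ compartment that holds the haematopoietic stem and multipotent progenitor cells of the mouse. The study sequenced RNA of 18 sorted samples from female mice of C57BL/6 and of NZB/W F1, the hybrid of NZB and NZW parents that develops lupus spontaneously. The LSK groups were prediseased NZB/W F1 (F1-P, 12 weeks of age), NZB/W F1 with lupus (F1-L, 28 to 36 weeks), young C57BL/6 (B6-Y, 12 weeks) and old C57BL/6 (B6-O, 28 to 36 weeks), and the CMP groups were F1-P and F1-L, with n = 3 samples in each. Mice of F1-L were both older than F1-P and diseased, with proteinuria, so age and disease cannot be told apart within the hybrid. F1-L differs from B6-O by disease as well as by strain, and these cannot be told apart there. The strain difference over all 12 LSK samples includes F1-L. The labels do not say whether the 3 samples of a group came from separate mice or from pools, and the p-values then measure the spread between these samples. The CMP sort is written in the study's methods as Sca-1+ c-Kit+ CD34+, whereas CMPs are usually defined as Sca-1-.

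Ly6 proteins are small surface proteins of the Ly6/uPAR family, held in the outer membrane leaflet by a GPI anchor. Ly6a encodes Sca-1, the antigen by which mouse stem and progenitor cells are sorted, and inbred strains carry alleles of it that differ in how many cells they mark. Ly6c1 and Ly6c2 encode the Ly6C antigens of monocytes and several lymphoid cells, and Ly6g encodes the antigen that marks neutrophils. The Gr-1 antibody, used here to remove mature cells, binds Ly6G and, less strongly, Ly6C. Ly6d marks lymphoid progenitors biased to the B lineage, and Ly6e is expressed on many blood cells and is known for its effects on virus entry. Several of these genes are induced by interferon, and Ly6a and Ly6c2 are also known in antibody-secreting plasma cells.

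The genes lie in one cluster on chromosome 15, and all 6 are protein coding. In GRCm38 coordinates, from the lower end upwards, Ly6d spans 74762056 to 74763620 on the minus strand, Ly6e 74955051 to 74959905 on the plus strand and Ly6a 74994877 to 74998031 on the minus strand. Further up, Ly6c1 spans 75044018 to 75048830 and Ly6c2 75108158 to 75111970, both on the minus strand, and Ly6g spans 75155240 to 75159126 on the plus strand. Values are reads of a gene relative to library size (CPM), scaled by the authors between samples and called scaled CPM, and LSK and CMP were scaled in separate tables, so no test was made across the 2 cell types. Each LSK sample held 23772252 to 28493747 reads and each CMP sample 20001328 to 24761060 reads over genes.

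Markers of mature cells were present in the sorted libraries and bear on these genes. Immunoglobulin genes took 16.8 to 36.6% of the reads of the LSK samples of NZB/W F1, 0.301 to 4.76% in the LSK samples of C57BL/6 and 0.0152 to 0.255% in CMPs. The summed scaled CPM of 11 plasma cell markers, all present, was 9868 to 38319 in LSK of NZB/W F1 and 328 to 2620 in LSK of C57BL/6. The summed scaled CPM of 11 neutrophil markers stood apart in single libraries of a group, at 10878 in B6-O replicate 3 against 851 and 1776 in the other B6-O samples, and at 5575 in B6-Y replicate 2 against 495 and 511. In CMPs it was 6588 and 8620 in F1-P replicates 2 and 3 against 321 in F1-P replicate 1. In these bulk samples, more cells of a type and more RNA per cell cannot be told apart.

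Ly6a, the Sca-1 gene, was far higher in LSK cells of NZB/W F1 than in those of C57BL/6. These cells were themselves sorted as Sca-1+, and the part of the gate in this difference was not tested. Scaled CPM of Ly6a was 37.0, 51.8 and 89.3 in B6-Y, 35.5, 40.7 and 113 in B6-O, 362, 876 and 879 in F1-P, and 293, 344 and 451 in F1-L. Each of the 6 samples of NZB/W F1 exceeded each of the 6 samples of C57BL/6, while the age groups within a strain overlapped. The mean was 705 ± 297 (SD, n = 3) in F1-P and 59.4 ± 27.0 (SD, n = 3) in B6-Y, a ratio of 11.9. On the log2(scaled CPM + 1) scale the difference was 3.53 ± 0.414 (SE), with adjusted p = 0.00121 by limma.

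The gene also differed between the older groups. The mean Ly6a level was 363 ± 80.7 (SD, n = 3) in F1-L and 63.0 ± 43.2 (SD, n = 3) in B6-O, a ratio of 5.76, and the log2 difference was 2.68 ± 0.425 (SE, limma adjusted p = 0.00813). Over both ages, the strain difference in the fit of all 12 LSK samples was 3.11 ± 0.332 (SE, limma adjusted p = 3.13e-05), and permuting the strain labels over 6 against 6 samples (exact permutation test, two-sided) gave p = 0.00216, the smallest possible. With 3 samples against 3 such a test cannot go below 0.1, so the smaller comparisons rest on the fit over all genes.

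Set against Kit, the other positive antigen of the LSK gate, Ly6a showed the same order of strains. There were 141 to 313 reads of Ly6a for every 100 reads of Kit in F1-P and 77.8 to 117 in F1-L, but 7.69 to 19.9 in B6-Y and 5.46 to 38.1 in B6-O. The highest C57BL/6 value, 38.1, was that of B6-O replicate 3, which also had the lowest Kit level of its group (296 scaled CPM, against 650 and 657) and the highest summed plasma cell and neutrophil markers. Kit itself was 303 ± 61.9 in F1-P, 389 ± 51.3 in F1-L, 447 ± 35.3 in B6-Y and 534 ± 207 in B6-O (mean scaled CPM ± SD, n = 3).

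**Figure D1:**
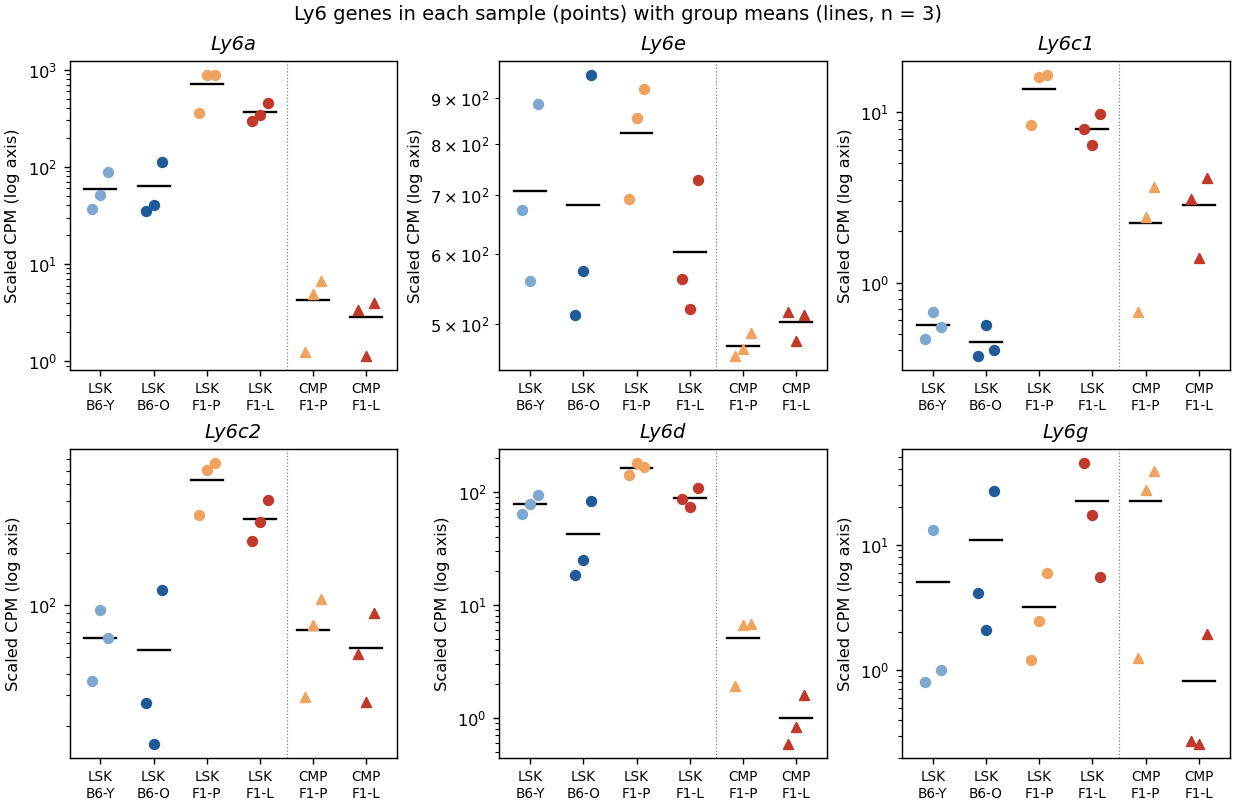
Scaled CPM of each Ly6 gene (vertical log axis, a separate range for each gene) in each sample, by cell type and group on the horizontal axis, with points for samples, horizontal lines for group means and a dotted line between the separately scaled LSK and CMP tables. Ly6a, Ly6c1 and Ly6c2 separate the LSK samples of NZB/W F1 from those of C57BL/6 with no overlap, Ly6e is similar in all LSK groups, and Ly6g varies most between samples of 1 group.

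Ly6a is nearly identical to its relatives over short stretches, which limits how 75-base single-end reads can be told apart. Of its 1311 windows of 75 exon bases, 83 also occur in another gene, 77 of them in Ly6c1 and 6 in Ly6i, the nearest neighbour of the family. Bases 1 to 300 of the 402 coding bases of Ly6a in GENCODE M21 are shown because the gene is the gate antigen. The capitals mark bases 50 to 129, which hold the windows shared with Ly6i.
Ly6a coding: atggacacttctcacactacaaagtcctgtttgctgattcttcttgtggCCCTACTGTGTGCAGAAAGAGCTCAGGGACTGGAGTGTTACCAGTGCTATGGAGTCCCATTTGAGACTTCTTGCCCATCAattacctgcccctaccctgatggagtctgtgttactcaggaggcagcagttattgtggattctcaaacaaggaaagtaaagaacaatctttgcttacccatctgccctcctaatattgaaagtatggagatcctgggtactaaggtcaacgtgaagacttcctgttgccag
The windows shared with Ly6c1 are not in this transcript but in others of Ly6a. The reference genome is that of C57BL/6J, so reads of NZB and NZW alleles were aligned to the sequence of the comparison strain, and the part of this in the strain difference was not tested.

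Ly6c1 and Ly6c2 were higher in NZB/W F1 too, at very different levels. Scaled CPM of Ly6c2 was 36.2, 93.1 and 64.2 in B6-Y, 26.9, 15.7 and 122 in B6-O, 330, 605 and 663 in F1-P, and 234, 302 and 405 in F1-L. Ly6c1 was at 0.465, 0.675 and 0.550 in B6-Y, 0.373, 0.568 and 0.401 in B6-O, 8.41, 16.0 and 16.5 in F1-P, and 7.93, 6.40 and 9.70 in F1-L. For both genes every NZB/W F1 sample lay above every C57BL/6 sample.

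The difference between F1-P and B6-Y was 3.06 ± 0.374 (log2, SE) for Ly6c2 (limma adjusted p = 0.00143), a ratio of means of 8.26. For Ly6c1 it was 3.17 ± 0.264 (log2, SE, limma adjusted p = 0.000233). The ratio of the Ly6c1 means was 24.2, and the log2 value understates it because 1 was added to low values. Ly6c1 held only 12 to 20 reads in each LSK sample of C57BL/6 and passed the filter on low values only through the NZB/W F1 samples, so it had to differ once tested. With no filter the log2 difference was 3.17 with adjusted p = 0.000224.

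Between the older groups the log2 difference was 2.99 ± 0.678 (SE) for Ly6c2 (limma adjusted p = 0.0323) and 2.62 ± 0.199 (SE) for Ly6c1 (limma adjusted p = 0.000401, and 0.000546 with no filter). The Ly6c2 call rested on each of several libraries, as it was lost when either B6-O replicate 1 or 2 or any F1-L replicate was left out (adjusted p from 0.0845 to 0.123) and with edgeR's quasi-likelihood test (adjusted p = 0.0826). Over the 12 LSK samples, the strain difference was 3.03 ± 0.432 (log2, SE) for Ly6c2 and 2.90 ± 0.169 for Ly6c1, with limma adjusted p of 0.000266 and 1.99e-07. The exact permutation test of 6 against 6 gave p = 0.00216 for each of the pair. In these fits too, Ly6c1 passed the filter on low values only through the NZB/W F1 samples. With no filter its limma adjusted p for strain was 2.05e-07.

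The 2 Ly6C genes differ by few bases, which is why both coding sequences are shown. Each has 393 coding bases with 9 differences between them, and capitals mark the 7 that fall in the bases shown, 1 to 300.
Ly6c1 coding: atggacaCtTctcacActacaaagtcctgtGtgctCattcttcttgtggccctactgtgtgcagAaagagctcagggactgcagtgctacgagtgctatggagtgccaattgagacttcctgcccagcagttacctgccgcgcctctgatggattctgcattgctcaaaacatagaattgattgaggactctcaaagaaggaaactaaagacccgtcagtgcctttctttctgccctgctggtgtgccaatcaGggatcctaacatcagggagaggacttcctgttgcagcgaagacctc
Ly6c2 coding: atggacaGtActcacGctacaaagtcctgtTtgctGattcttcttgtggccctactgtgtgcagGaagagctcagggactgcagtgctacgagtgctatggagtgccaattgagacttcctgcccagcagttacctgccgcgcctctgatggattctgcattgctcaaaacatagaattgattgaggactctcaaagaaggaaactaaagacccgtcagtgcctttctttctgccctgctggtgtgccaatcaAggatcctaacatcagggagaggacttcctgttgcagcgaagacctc
They are 97.7% identical, and the longest stretch without a difference is 188 bases, longer than a read. Of the 1764 exon windows of 75 bases of Ly6c1, 19% also occur in another gene (259 in Ly6c2 and 77 in Ly6a), and 9.46% of the windows of Ly6c2 occur in Ly6c1. Ly6c1 took 0.327 to 3.50% of the reads of the pair in LSK of C57BL/6 and 2.08 to 3.27% in LSK of NZB/W F1. Its low level is uncertain because reads can match both genes, and the study does not say how such reads were counted. The other coding sequences are further apart, as Ly6a is 81.8% identical to Ly6c1 and 83.1% to Ly6g, and Ly6e and Ly6d are 52.3% and 47.4% identical to Ly6a.

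Ly6d was higher in LSK of NZB/W F1 by a smaller factor. Its scaled CPM was 63.3, 77.2 and 94.3 in B6-Y, 18.2, 25.1 and 83.2 in B6-O, 140, 179 and 164 in F1-P, and 85.8, 72.9 and 107 in F1-L. The F1-P samples lay above all B6-Y samples, whereas F1-L and B6-O overlapped through B6-O replicate 3. The F1-P mean was 161 ± 19.5 and the B6-Y mean 78.3 ± 15.5 (SD, n = 3), a log2 difference of 1.04 ± 0.173 (SE, limma adjusted p = 0.00562). With all 12 LSK samples in one fit the difference was again 1.04 but was not called (limma adjusted p = 0.113).

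Between F1-L and B6-O, Ly6d differed by 1.34 ± 0.512 on the log2 scale (SE), which did not pass the threshold (limma adjusted p = 0.143). Without B6-O replicate 3 the difference was 1.98 with adjusted p = 0.00180. Over all LSK samples the strain difference was 1.19 ± 0.296 (log2, SE, limma adjusted p = 0.00985, exact permutation p = 0.0195), and it was no longer called without F1-P replicates 2 and 3, the libraries richest in plasma cell markers (1.10, adjusted p = 0.108). That call was therefore less stable than those of Ly6a and Ly6c2, which held under all alternatives run for the strain difference.

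Ly6e and Ly6g did not pass the threshold for strain. Ly6e was 674, 560 and 887 in B6-Y, 513, 575 and 956 in B6-O, 692, 856 and 921 in F1-P, and 562, 521 and 728 in F1-L. All 4 groups overlapped, and the strain difference was 0.05 ± 0.185 (log2, SE, limma adjusted p = 0.865), a value whose sign changed when single samples were left out.

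Ly6g was listed at 0.806, 13.2 and 0.998 in B6-Y, 4.14, 2.08 and 26.7 in B6-O, 1.20, 2.45 and 5.98 in F1-P, and 44.8, 17.3 and 5.48 in F1-L. Its high values in C57BL/6 were those of B6-Y replicate 2 and B6-O replicate 3, the libraries with the high neutrophil markers. The strain difference of Ly6g was 0.61 ± 0.698 (log2, SE, limma adjusted p = 0.536).

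Leaving out Ly6c1, which was tested only because it was high in NZB/W F1, 3 of the other 5 genes passed the thresholds between F1-P and B6-Y, where 16.2% of all genes tested did, and all 3 were higher in NZB/W F1. Between F1-L and B6-O it was 2 of 5, against 11.6% of all genes. Over both ages it was 3 of 5, against 19.0%. Of these 5, the groups did not overlap for 3 between F1-P and B6-Y (17.4% of all genes were higher without overlap), for 2 between F1-L and B6-O (17.5%) and for 2 over both ages (9.53%). The genes had been chosen with earlier results of these data known, so these counts describe the members and are no test of the family.

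**Figure D2:**
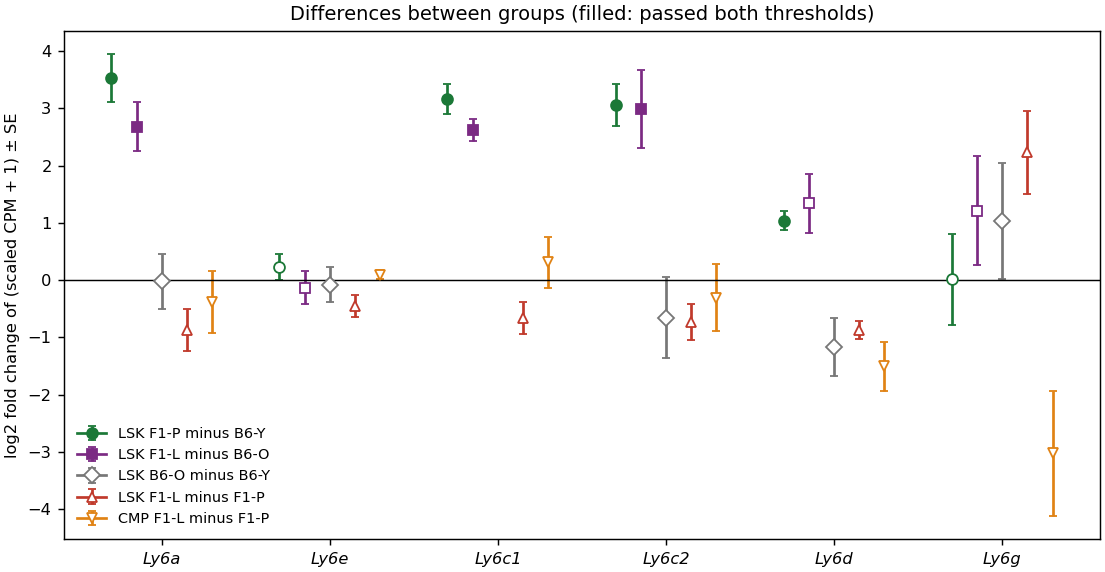
Log2 difference of scaled CPM + 1 between groups (vertical axis, bars for ± SE, n = 3 samples in each group) for each Ly6 gene, with filled symbols for differences that passed both thresholds. Ly6a, Ly6c1 and Ly6c2 lie between 2.62 and 3.53 in both strain comparisons (circles and squares), and no difference between stages or ages (diamonds and triangles) passed.

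Plasma cell markers moved with the strain in the same libraries as Ly6a, Ly6c1, Ly6c2 and Ly6d. All 11 plasma cell markers were called higher in NZB/W F1 over the 12 LSK samples, with log2 differences from 1.07 to 4.50. Jchain, which encodes the chain that joins secreted antibodies, was at 12939 to 33325 scaled CPM in F1-P, 8063 to 10851 in F1-L, 525 to 1501 in B6-Y and 116 to 2098 in B6-O. There were 2.63 to 2.90 reads of Ly6a for every 100 of Jchain in F1-P, 3.54 to 4.27 in F1-L, 3.45 to 7.04 in B6-Y and 5.38 to 35.1 in B6-O. The part of plasma cell RNA in the strain difference of these Ly6 genes was not tested.

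The genes whose levels followed each member most closely over the 12 LSK samples were ranked by Pearson's r of log2 values among 10899 genes. These correlations describe samples of 4 groups and 2 strains that share the strain difference, so r within each strain (n = 6) is given as well. For Ly6a the closest were Oosp1 (r = 0.992, within NZB/W F1 0.99 and within C57BL/6 0.95), Rexo2 (0.992, 0.99 and 0.98) and Itm2c (0.989, 0.89 and 0.96). For Ly6c2 they were Jchain (0.993, 0.93 and 0.98), Eaf2 (0.991, 0.95 and 0.98) and Tnfrsf17 (0.990, 0.97 and 0.98), all of which are on the plasma cell marker list used here.

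For Ly6c1 the closest genes were Sel1l (r = 0.995, within NZB/W F1 0.93 and within C57BL/6 0.89), Dnajc3 (0.991, 0.95 and 0.49) and Pon3 (0.990, 0.92 and 0.02). The first 2 act in protein quality control and folding in the endoplasmic reticulum. Ly6c1 was near the limit of detection within C57BL/6. For Ly6d they were Pkig (r = 0.932, within NZB/W F1 0.99 and within C57BL/6 0.85), Cd79b (0.931, 0.80 and 0.95), a chain of the B cell receptor, and Lgmn (0.930, 0.88 and 1.00). For Ly6e, the closest genes reached lower values, 0.920 for Tmem192 (within NZB/W F1 0.91 and within C57BL/6 0.97), 0.911 for Emc3 (0.83 and 0.97) and 0.905 for Cnot8 (0.90 and 0.91).

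Ly6g varied with neutrophil genes. Its closest genes were Pglyrp1, a granule protein of neutrophils (r = 0.987, within NZB/W F1 0.99 and within C57BL/6 0.98), Mmp9, a neutrophil protease on the marker list (0.983, 0.99 and 0.98), and Rhou (0.982, 1.00 and 0.98). Its r with S100a8 was 0.961, within NZB/W F1 0.98 and within C57BL/6 1.00.

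**Figure D3:**
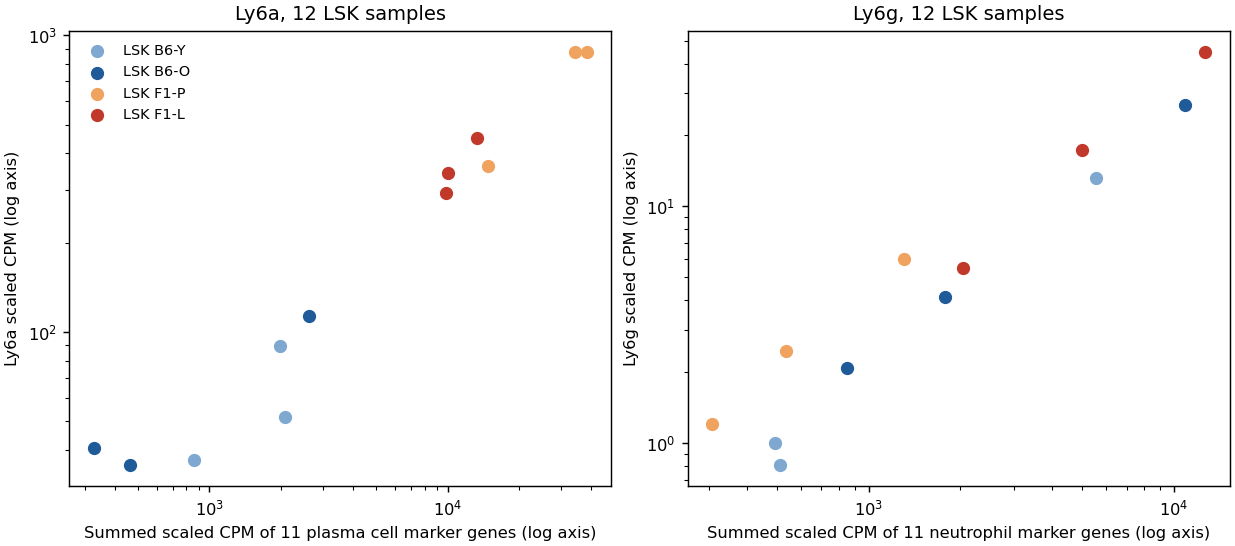
Scaled CPM of Ly6a against the summed scaled CPM of 11 plasma cell markers (left) and of Ly6g against that of 11 neutrophil markers (right) in the 12 LSK samples, coloured by group, with log axes. Ly6a spans 35.5 to 879 over plasma cell sums of 328 to 38319, with its high values at the high sums, and Ly6g is highest, at 44.8, where the neutrophil sum is highest, at 12649.

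Other lineages were compared in the same way, where 19.0% of all genes tested were called between the strains over the 12 LSK samples. Over the 12 LSK samples, 6 of 8 T and NK cell markers were called higher in NZB/W F1, with summed scaled CPM of 156 to 391 there and 58.6 to 152 in C57BL/6. Of 10 B lymphoid markers, 2 were called higher (Cd79a and Cd79b) and 1 lower (Dntt), and none of 11 neutrophil markers was called by limma or had an unadjusted p below 0.05. Of 10 monocyte markers, 3 were called higher in NZB/W F1 (Ccr2, Cd14 and Klf4), and the summed scaled CPM was 299 to 406 in F1-P, 472 to 729 in F1-L, 240 to 374 in B6-Y and 111 to 343 in B6-O. Between F1-L and B6-O all 10 had higher means in F1-L and 3 were called (Ccr2, Cd14 and Fn1), beside the higher Ly6c1 and Ly6c2 there. Between F1-P and B6-Y, where Ly6c1 and Ly6c2 were higher as well, 4 of the 10 were higher and 6 lower. The median log2 difference of the 10 was -0.58 there, and Cx3cr1 and Klf4 were called, 1 higher and 1 lower. Of 9 plasmacytoid dendritic cell markers, 8 were tested over the 12 samples, and Ccr9 and Cox6a2 were called, 1 higher and 1 lower. Of 11 stem cell markers, Hlf and Meis1 were called lower in NZB/W F1. Of 8 erythroid and megakaryocytic markers, Itga2b and Car1 were called, 1 higher and 1 lower. Of 6 endothelial markers, Cdh5 and Egfl7 were called, 1 higher and 1 lower. Of 6 stromal markers, 4 were tested, and Col1a2 was called higher. The part of these cells in the levels of the Ly6 genes was not tested.

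Interferon-induced genes went the other way from Ly6a between the strains. Of 25 listed, 13 were called lower in LSK of NZB/W F1 and none higher over the 12 samples, with a median log2 difference of -0.59. The largest differences called were those of Oas2 (-1.54 ± 0.202, limma adjusted p = 0.000140), Rtp4 (-1.09 ± 0.155, adjusted p = 0.000260), Oasl2 (-1.09 ± 0.142, adjusted p = 0.000138) and Oasl1 (-1.08 ± 0.143, adjusted p = 0.000149), as log2 ± SE. Between the young groups 15 of 25 were called lower, where 16.2% of all genes were called. Between the older groups only Rtp4 was (-0.78 ± 0.170, limma adjusted p = 0.0288), where 11.6% were. From F1-P to F1-L, 19 of the 25 were higher and 6 lower, 7 with an unadjusted p below 0.05 (12.8% of all genes). The change from the young to the older group was more positive in NZB/W F1 for 23, with 13 at that level (3.92% of all genes). None was called in either. Ly6e, itself known as an interferon-induced gene, was not called in any comparison.

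The strain difference was not shared by all genes of the region. Of 26 other genes tested within 1000 kb of Ly6a, 5 were called higher in NZB/W F1 and 1 lower, with a median log2 difference of -0.06. Among all genes tested, 19.0% were called for strain in either direction, so the count of neighbours called over the whole window is near that share. For genes called higher, it was 1805 of 15084. The 5 neighbours called higher all lie within 293 kb of Ly6a, beside others there that were not called. The 1 called lower lies 433 kb from it. Ly6k, a further family gene that lies 198 kb below Ly6a, differed by 3.29 ± 0.321 (log2, SE, limma adjusted p = 1.5e-05), from a range of 0.537 to 3.71 scaled CPM in C57BL/6 to 12.9 to 44.8 in NZB/W F1. Ly6i, which lies 15.3 kb from Ly6a and shares windows with it, differed by 1.41 ± 0.214 (adjusted p = 0.000426), at 3.21 ± 1.07 in NZB/W F1 and 0.579 ± 0.403 scaled CPM in C57BL/6 (SD, n = 6). Like Ly6c1, Ly6i passed the filter on low values only through the NZB/W F1 samples, since a single C57BL/6 sample, at 1.27, was above 1 scaled CPM. Ly6e, which lies 39.8 kb from Ly6a between genes that differed, had no called difference.

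**Figure D4:**
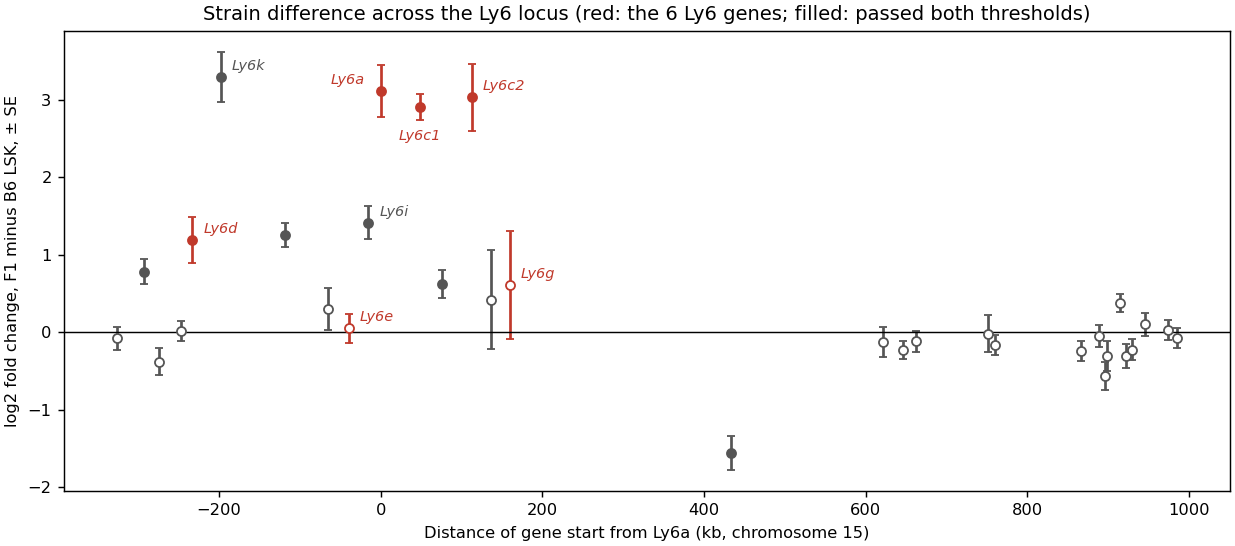
Log2 difference between LSK of NZB/W F1 and of C57BL/6 (vertical axis, bars for ± SE over 12 samples) against the distance of each gene's start from that of Ly6a on chromosome 15 in kb, for tested genes within 1000 kb. Red symbols are the 6 Ly6 genes and filled symbols passed both thresholds. Ly6k, Ly6a, Ly6c1 and Ly6c2 stand between 2.90 and 3.29, and Ly6e, among them, is at 0.05.

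Of 38 further genes of the Ly6/uPAR family on the list used, 7 passed the filter on low values over the LSK samples. Besides Ly6k and Ly6i, Cd59a, an inhibitor of the complement membrane attack complex, was called higher in NZB/W F1 (0.74 ± 0.153 on the log2 scale, limma adjusted p = 0.00348). Lypd6b was called lower (-0.60 ± 0.148, adjusted p = 0.00932). The remaining tested genes included Plaur, the urokinase receptor, at -0.51 ± 0.402 (adjusted p = 0.365).

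Promoter sequences were held in RefSeq's table for Ly6c1, Ly6c2 and Ly6g. They are shown because the Ly6C pair moved with the strain and Ly6g, their neighbour, was not called. Each is the 250 bases before the first listed start site, in GRCm38.p6, at chr15:75048838-75049087 (minus strand) for Ly6c1, chr15:75111972-75112221 (minus strand) for Ly6c2 and chr15:75155011-75155260 (plus strand) for Ly6g. Capitals mark matches to TATAAA or GAGGAAGT.
Ly6c1 promoter: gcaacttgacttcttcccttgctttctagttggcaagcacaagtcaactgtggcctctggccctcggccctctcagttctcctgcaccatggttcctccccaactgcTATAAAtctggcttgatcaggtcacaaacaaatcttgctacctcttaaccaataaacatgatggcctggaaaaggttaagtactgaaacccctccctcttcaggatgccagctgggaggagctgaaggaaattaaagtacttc
Ly6c2 promoter: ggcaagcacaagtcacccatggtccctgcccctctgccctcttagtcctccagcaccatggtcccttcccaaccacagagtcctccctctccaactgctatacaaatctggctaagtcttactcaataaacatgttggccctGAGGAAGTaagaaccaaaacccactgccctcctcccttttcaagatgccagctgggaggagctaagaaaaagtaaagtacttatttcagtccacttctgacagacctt
Ly6g promoter: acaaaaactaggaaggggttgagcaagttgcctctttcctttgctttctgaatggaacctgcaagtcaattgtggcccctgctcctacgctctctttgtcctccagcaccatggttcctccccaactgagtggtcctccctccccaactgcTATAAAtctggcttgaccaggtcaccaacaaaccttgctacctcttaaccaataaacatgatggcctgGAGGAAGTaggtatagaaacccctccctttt
The letters searched on both strands were TTCNNNGAA, which STAT factors bind, the ISRE core of interferon response elements (GAAA on either side of 2 free bases), GAGGAAGT, which PU.1 binds, and TATAAA. Of 32851 promoters of this length in the table, 7.02%, 2.98%, 2.44% and 12.4% hold them. GAGGAAGT occurs in the sequences of Ly6c2 and Ly6g and TATAAA in those of Ly6c1 and Ly6g, and the first 2 motifs occur in none of the 3. RefSeq lists a second start site for each gene, whose 250 bases overlap those shown. There GAGGAAGT occurs in all 3 genes, Ly6c1 included, and TATAAA only in Ly6g. A match is a description of letters and not of binding.

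Within NZB/W F1, the comparison of F1-L with F1-P asked whether the genes changed with the onset of lupus. No Ly6 gene passed the thresholds in LSK cells by limma, where 0.0279% of all genes did (4 genes). Of the 6, 4 had an unadjusted p below 0.05, a level reached by 12.8% of all genes tested. Ly6a averaged 363 ± 80.7 scaled CPM in F1-L against 705 ± 297 in F1-P (SD), a log2 difference of -0.87 ± 0.366 (SE, limma adjusted p = 0.389), and the ranges overlapped through F1-P replicate 1. The differences of Ly6c1, Ly6c2 and Ly6e were -0.66 ± 0.277, -0.73 ± 0.311 and -0.45 ± 0.194, also without passing (limma adjusted p from 0.385 to 0.397).

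Ly6d was the member whose LSK values separated by stage. Its 3 samples in F1-L, at 72.9 to 107 scaled CPM, lay below those of F1-P, at 140 to 179, where 7.29% of all genes were lower without overlap. The log2 difference was -0.87 ± 0.162 (SE, limma adjusted p = 0.172). It passed by edgeR's likelihood ratio test (adjusted p = 0.00356) and by DESeq2 (adjusted p = 0.000431), while edgeR's quasi-likelihood test called no member. All 10 B lymphoid markers had lower means in F1-L, with summed scaled CPM of 449 to 538 against 701 to 2155 in F1-P, and none was called. All 11 plasma cell markers were lower in F1-L as well, at 9868 to 13233 against 14802 to 38319, and none was called. The part of either cell type in the difference of Ly6d was not tested.

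Ly6g had the largest difference by stage in LSK cells. It was at 5.48 to 44.8 scaled CPM in F1-L and 1.20 to 5.98 in F1-P, overlapping between F1-L replicate 3 and F1-P replicate 3, with a log2 difference of 2.23 ± 0.728 (SE, limma adjusted p = 0.283). It passed by edgeR's likelihood ratio test (adjusted p = 0.0248) but not by DESeq2 (0.0683) or the quasi-likelihood test (0.235). The summed neutrophil markers were 2033 to 12649 in F1-L and 308 to 1303 in F1-P, and each of the 11 had an unadjusted p below 0.05, with log2 differences from 2.20 to 3.25. The Gr-1 and CD11b antibodies of the sort should remove cells that carry Ly6G, and the part of neutrophil RNA in this difference was not tested.

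Between B6-O and B6-Y no member was called, none of the 5 tested had an unadjusted p below 0.05 (6.62% of all genes did), and 0% of all genes were called by limma. The likelihood ratio test, the quasi-likelihood test and DESeq2 called none of the members either. Ly6a differed by -0.02 ± 0.480 and Ly6e by -0.08 ± 0.301 (log2, SE), and Ly6c1 was below the filter in this comparison. Ly6d was 42.2 ± 35.7 in B6-O and 78.3 ± 15.5 in B6-Y (-1.17 ± 0.506, limma adjusted p = 0.770), and without B6-O replicate 3 the difference was -1.80 with adjusted p = 0.0286. The change from the young to the older group did not differ between the strains at the threshold for any member, and none had an unadjusted p below 0.05, where 0% and 3.92% of all genes did by limma. No member was called in this comparison by either edgeR test or DESeq2. For Ly6a the difference of the changes was -0.85 ± 0.665 (limma adjusted p = 0.976).

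In CMPs, Ly6a, Ly6d and Ly6c1 were at a few scaled CPM while Ly6e stayed abundant. Ly6a was at 1.25, 4.94 and 6.70 scaled CPM in F1-P and 3.36, 1.14 and 3.98 in F1-L, from 22 to 171 reads in a sample. There were 0.300 to 1.49 reads of Ly6a for every 100 of Kit in F1-P and 0.202 to 0.743 in F1-L, beside the 77.8 to 313 in LSK cells of the same strain. The Sca-1 gene was thus at a low level in cells whose sort is written as Sca-1+, and the protein was not measured in these tables.

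In CMPs the Ly6C genes were higher relative to Ly6a than in LSK cells. Ly6c2 was at 29.3 to 108 scaled CPM in F1-P and 27.3 to 89.3 in F1-L, and Ly6c1 at 0.672 to 3.64 and 1.39 to 4.13. There were 49.1 to 54.4 reads of Ly6c1 for every 100 of Ly6a in F1-P and 91.9 to 123 in F1-L, beside 1.83 to 2.70 in LSK cells of NZB/W F1. In CMPs these ratios rest on few reads, 14 to 93 of Ly6c1 and 22 to 171 of Ly6a in a sample, of genes that share windows. Ly6e was at 461 to 489 in F1-P and 479 to 517 in F1-L, with an SD of 14.4 and 20.9 over n = 3 samples, the smallest relative spread of the 6 genes.

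None of the 6 genes passed between F1-L and F1-P CMPs by limma, where 0.00774% of all genes did, and 2 had an unadjusted p below 0.05, Ly6d and Ly6g, against 9.80% of all genes. Ly6d was 1.92, 6.66 and 6.74 scaled CPM in F1-P and 0.591, 0.826 and 1.59 in F1-L, without overlap (6.57% of all genes were lower without overlap), with a log2 difference of -1.51 ± 0.425 (SE, limma adjusted p = 0.400). Ly6g was 1.25, 27.5 and 38.7 in F1-P and 0.273, 0.258 and 1.94 in F1-L, with a log2 difference of -3.03 ± 1.09 (SE, limma adjusted p = 0.477). Ly6d and Ly6g passed the filter on low values only through F1-P, since a single F1-L sample of each was above 1 scaled CPM. Their p-values and calls here are therefore those of genes kept through the group where they were high. Both passed by the likelihood ratio test (adjusted p = 0.0144 and 0.0215) and DESeq2 (0.0129 and 0.0233), and by limma when F1-P replicate 1 was left out (0.0179 and 0.0114). Neither passed by the quasi-likelihood test (adjusted p = 0.326 and 0.351) or with a replicate block (0.596 and 0.597).

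The 2 high values of Ly6g were those of the F1-P libraries with the high neutrophil markers, and all 11 neutrophil markers had lower means in F1-L, with summed scaled CPM of 66.4 to 442. All 10 B lymphoid markers had lower means in F1-L CMPs as well, at 89.2 to 232 against 237 to 460. Of 8 plasma cell markers tested in CMPs, 7 were lower in F1-L and 1 was higher. The sort should remove B220+, Gr-1+, CD11b+ and CD16/32+ cells, and the part of such cells in the values of Ly6d and Ly6g was not tested. Ly6a, Ly6c2 and Ly6c1 differed by -0.38 ± 0.539, -0.31 ± 0.587 and 0.31 ± 0.450, and Ly6e by 0.09 ± 0.0791 (log2, SE).

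Per kilobase of exon, the order of the genes also differed between the groups. The length used covers all listed exons of a gene, 1205 bases for Ly6a and 2740 for Ly6c2. The transcripts whose coding sequences are shown hold 745 windows of the read length for Ly6a and 748 for Ly6c2, so they are nearly equal in length. The place of Ly6c2 in the orders below therefore depends on the length chosen, and orders by transcript length were not tested. In F1-P LSK cells, the mean scaled CPM per kb was 585 ± 247 for Ly6a, 218 ± 31.2 for Ly6e, 216 ± 26.2 for Ly6d, 194 ± 65.0 for Ly6c2, 8.13 ± 2.71 for Ly6c1 and 3.40 ± 2.48 for Ly6g (SD, n = 3). Ly6e, Ly6d and Ly6c2 lay within their spread of each other. In B6-Y LSK cells Ly6e came first, at 187 ± 43.9, followed by Ly6d at 105 ± 20.9, Ly6a at 49.3 ± 22.4 and Ly6c2 at 23.5 ± 10.4. In F1-P CMPs Ly6e was at 125 ± 3.81 per kb, and Ly6c2 at 26.1 ± 14.4 and Ly6g at 23.9 ± 20.4 did not differ beyond their spread.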

How the data were processed

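RNA of LSK cells and CMPs, sorted by flow cytometry from bone marrow, was sequenced from 18 samples. Per the labels and the study's methods, poly(A) libraries (TruSeq v2) were read as single-end 75-base reads, aligned to mm10 (GRCm38) with STAR 2.6, counted per gene with HTSeq and analysed with edgeR. The deposited signal values are CPM scaled between samples by the authors, in 1 table for LSK and 1 for CMP. Their column sums differ (832403 to 1387186 in LSK), as scaled CPM do, and 100.0% of values were whole multiples of 1 read within 0.02 of a read, so whole reads were recovered.

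Samples were grouped by the labels. Each comparison was fitted with limma 3.58.1 (trended prior, two-sided) on log2(scaled CPM + 1), over genes with at least 1 scaled CPM in at least 3 of the samples fitted. Genes were called at a Benjamini-Hochberg adjusted p of at most 0.05 over all genes tested and a fold change above 1.5, the thresholds of the study. The design had assumed plain CPM. Strain and the difference of age changes used all 12 LSK samples, and other comparisons only their 2 groups. Alternatives were pseudocounts of 0.1 and 0.5, other filters and scalings, edgeR 4.0.16 and DESeq2 1.42.0 on the recovered reads, the replicate number as a block, all 12 LSK samples in one fit and leaving out samples. No pair of libraries in a group agreed within sampling noise. The tests were checked on simulated data. Gene positions and coding sequences are from GENCODE M21 and promoters from RefSeq (GRCm38.p6).

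The named genes are the 6 members, other Ly6/uPAR genes called (at most 10 in a comparison), up to 6 interferon-induced genes called by size, and the 3 genes most like each member by r, with a mean of at least 5 scaled CPM. Members, gene lists and tests were chosen with earlier results of these data known. Precision is set by n = 3 and, for genes such as Ly6c1 in C57BL/6 and Ly6a in CMPs, by few reads.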

Additional observations from a re-analysis of the deposited data

How the results depend on the processing

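Of 762 member values under alternatives, 709 kept their direction and side of the threshold. Ly6a kept its calls in every alternative run for F1-P against B6-Y, F1-L against B6-O and strain (log2 for strain 2.68 to 3.37). Ly6c1 was not tested without any 1 of the NZB/W F1 samples in the comparisons of 2 groups, nor with a mean of at least 5 between F1-L and B6-O, so its calls there are no sign of stability. Ly6d between F1-P and B6-Y was lost with all 12 LSK samples in one fit (adjusted p = 0.113). Leaving out libraries together (B6-O 3 with B6-Y 2, or F1-P 2 with F1-P 3) was chosen after seeing the data. Scaling moved the median of all genes by at most 0.04. The cause of changes between tools was not tested.

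The number of genes called between F1-L and F1-P in LSK was 4, and 2 with median-of-ratios scaling, 659 by the likelihood ratio test, 734 by DESeq2, 26 with all 12 samples in one fit and 0 to 25 on leaving out 1 sample (0 without F1-P 2, 25 without F1-P 3). Between F1-P and B6-Y it was 2331, and 927 to 2229 on leaving out 1 sample (lowest without F1-P 2). Between F1-L and B6-O it was 1667, 978 with a mean of at least 5 and 448 to 2285 on leaving out 1 sample (lowest without F1-L 3). Between B6-O and B6-Y it was 0 by limma and by the quasi-likelihood test (927 genes with unadjusted p below 0.05), 115 by the likelihood ratio test, 207 by DESeq2, 15 with all 12 samples, 1 without immunoglobulin genes in the scaling and 0 to 48 on leaving out 1 sample (48 without B6-O 3). For strain it was 2869, 1878 with a mean of at least 5, 1832 without F1-P 2 and 3 and 2421 to 3120 on leaving out 1 sample. For the difference of changes it was 0 by limma and by the quasi-likelihood test (591 with unadjusted p below 0.05), 10 by the likelihood ratio test, 29 by DESeq2 and 0 to 1 on leaving out 1 sample. In CMPs it was 1, and 0 with a mean of at least 5 or without F1-P 2 and 3, 318 by the likelihood ratio test, 351 by DESeq2 and 0 to 434 on leaving out 1 sample (434 without F1-P 1).

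Log2 values that changed sign were not called. Ly6g between F1-P and B6-Y was -0.64 with both edgeR tests and -0.62 with DESeq2, and -0.51 to 0.98 on leaving out 1 sample. Ly6a between B6-O and B6-Y was 0.09 with both edgeR tests and 0.05 with DESeq2, and -0.54 to 0.32 on leaving out 1 sample, and Ly6e there -0.35 to 0.09. On leaving out 1 sample, Ly6e was -0.31 to 0.14 between F1-L and B6-O and -0.04 to 0.19 for strain, and it was -0.07 for strain without F1-P 2 and 3. For the difference of changes, Ly6c2 was -0.67 to 0.77 and Ly6d -0.13 to 0.94 on leaving out 1 sample, and without B6-O 3 and B6-Y 2 Ly6c2 was 0.46 and Ly6e 0.06. In CMPs, Ly6c2 was -0.84 to 0.12 and Ly6c1 -0.11 to 0.62 on leaving out 1 sample, and without F1-P 2 and 3 Ly6a was 0.68 and Ly6c2 0.76.

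The groups share replicate numbers, and same-numbered samples deviated together in 8 of 21 pairs (r above 0.1, range -0.49 to 0.68). With deviations from means of n = 3 samples, this check cannot decide whether the numbers pair the samples. With the replicate number as a block, 0 genes were called between F1-L and F1-P in LSK and 0 in CMPs, 2787 between F1-P and B6-Y, 1380 between F1-L and B6-O, 0 between B6-O and B6-Y, 2896 for strain and 0 for the difference of changes. None of the 41 member values with the block changed direction or call.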
